A study of Mus musculus with 20 samples.

Results

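The 10 genes described here, Pecam1, Cdh5, Kdr, Flt1, Tek, Tie1, Angpt1, Angpt2, Vegfa and Vegfc, encode proteins of the endothelial cell surface and the secreted factors that act on them. They were taken by symbol from the deposited counts of reads per gene, where all 10 were found among 23457 genes, and all 10 passed the low-count filter that left 16099 genes for testing. RNA came from whole ovaries of 20 females of the Ames dwarf strain, 1 library per mouse and 5 mice in each of 4 groups. The groups were dwarf mice (df/df) at 22 months, dwarf mice at 6 months, normal mice (N/df) at 22 months and normal mice at 6 months. Mice with df on both chromosomes lack the pituitary cells that make growth hormone, prolactin and thyrotropin. The normal mice carry 1 df allele, so that every mouse in the study carried the mutation in at least 1 copy. Ovaries were frozen whole and polyadenylated RNA was sequenced, so each value is an average over follicles, corpora lutea, stroma and vessels.

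Blood vessels grow and are kept by a pair of ligand and receptor systems. VEGF-A, the product of Vegfa, drives endothelial growth and permeability through its receptor Kdr, while Flt1 binds VEGF-A tightly and signals weakly, and VEGF-C, from Vegfc, acts on lymphatic vessels through Flt4 and on blood vessels through Kdr. Angiopoietin-1, made by cells around the vessel, activates the receptor Tek and steadies the vessel wall, and angiopoietin-2 competes with it in growing or regressing vessels, with Tie1 as a partner of Tek. In the ovary the layer of granulosa cells has no vessels until ovulation, the theca around it is vascular, and the corpus luteum is among the most densely vascular tissues of the adult body.

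Total counts over genes ranged from 1365640 to 36068284 per library, with group medians of 10120399 in dwarf mice at 22 months, 16846616 in dwarf mice at 6 months, 14479403 in normal mice at 22 months and 13733504 in normal mice at 6 months. Levels are given as CPM, a gene's reads relative to the reads counted in all genes of the library, and fold changes come from edgeR after TMM scaling. Markers of oocytes, granulosa cells and luteal cells were found in every group. Summed oviduct markers were 2260 to 3974 CPM in dwarf ovaries at 22 months and 77.3 to 1761 CPM in dwarf ovaries at 6 months. In normal ovaries they were 2240 to 4235 CPM at 22 months and 92.5 to 6799 CPM at 6 months. All 7 oviduct, 8 ciliated and 7 surface epithelium markers had fold changes above 0 on the log2 scale with age in both genotypes. The part of these cells in the age contrasts was not tested. Libraries of 3 normal mice stood apart. Normal 6-month replicate 2 had summed oviduct markers of 6799 CPM, against a group median of 172, with luteal markers at 259 CPM and granulosa markers at 79.4 CPM. Normal 6-month replicate 3 was the shallowest library, and normal 22-month replicate 3 had 1215 CPM of B and plasma cell markers, against a group median of 114. Calls among the 10 genes that change without these 3 libraries are given both ways. Another 3 libraries, with title numbers 21 to 23 outside the run of numbers of their groups (dwarf 22-month replicate 5, normal 22-month replicate 3 and normal 6-month replicate 5), were also left out together. The most alike pair of replicates was 1 and 4 of the dwarf group at 22 months (chi-square per degree of freedom 2.42, against 11.6 for the next pair). They differed beyond counting noise and were kept as 2 samples. That difference does not show that they came from separate mice, and a fit with the 2 summed as 1 library was also run.

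A gene was called at an adjusted p under 0.05 over all 16099 genes in edgeR's quasi-likelihood test, with 1 model of the 4 group means. At 6 months, 1 of the 10 genes was called between dwarf and normal ovaries, Vegfa, which was lower in dwarf ovaries, where 4.57% of all tested genes were called and 2.3% were called lower. At 22 months none was called between the genotypes in edgeR, where 3.81% of all genes were called. There 7 of the 10 had an unadjusted p under 0.05, against 18% of all genes. DESeq2 called 1 of the 10, where it called 7.46% of all genes, and limma voom called 4, where it called 14.1%. Between 22 and 6 months, 1 gene was called in dwarf ovaries, Vegfc, where 11.2% of all genes were called and 8.27% were called lower. In normal ovaries 2 were called, Angpt2 and Vegfa, where 6.75% of all genes were called and 4.14% were called lower. All of these were lower at 22 months. The difference between the age responses of the genotypes was called for none of the 10 genes, with 0% of all genes called. At an unadjusted p under 0.05 stood 2 of the 10, Vegfa and Vegfc, against 7% of all genes, and DESeq2 and limma voom called none of the 10, where they called 0.106% and 0.0559% of all genes.

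The share of all genes called by edgeR was larger without the 3 libraries that stood apart, and counts given without them are to be read against it. It was then 10.8% between the genotypes at 22 months, 12.2% between them at 6 months, 28.7% with age in dwarf ovaries, 29.6% with age in normal ovaries and 1.23% for the difference between the age responses. With the normal groups alone in the fit, edgeR called 0 of 15304 genes with age. Each call with age in normal ovaries given here, list genes included, was therefore lost there. Without title numbers 21 to 23, edgeR called 1.17% of all genes in this contrast. The calls given here for the 10 genes and the 8 vascular lists were lost in that fit too, and marker calls are not given for it.

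**Figure D1:**
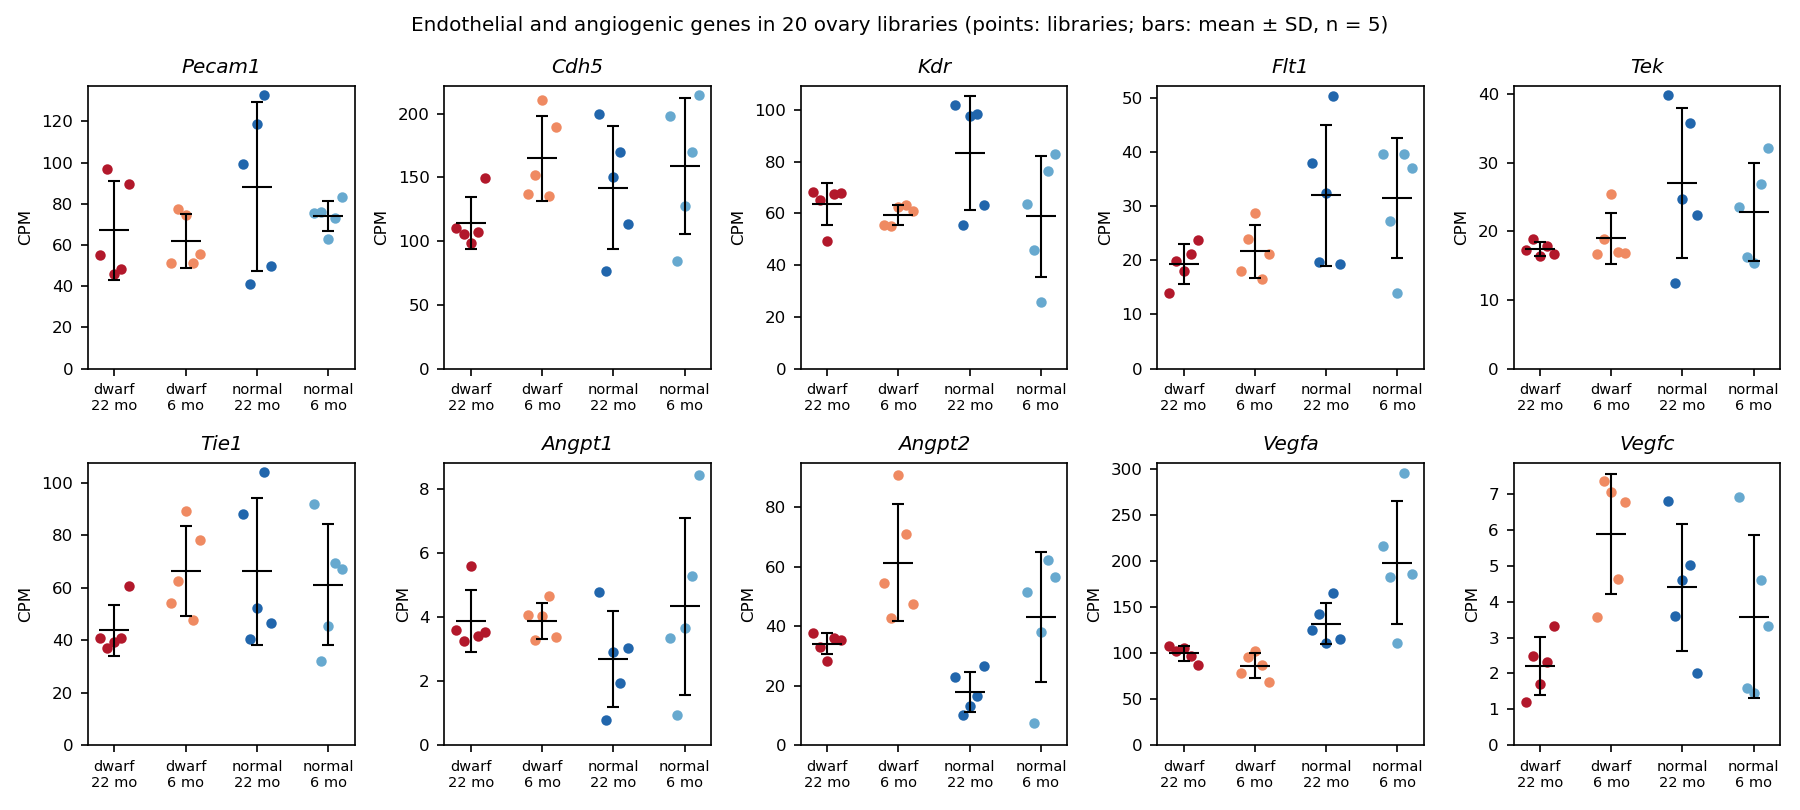
CPM of the 10 genes in each of the 20 libraries (points), with the mean and SD of each group of 5 mice (bars). Vegfa sat at 67.9 to 102 CPM in dwarf ovaries at 6 months and at 111 to 295 CPM in normal ovaries at 6 months.

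Per kilobase of exon, the scale on which genes can be compared, Cdh5 and Vegfa held the 2 highest levels of the 10 genes in every group. Cdh5 led with 28.6 ± 5.09 CPM per kb in dwarf ovaries at 22 months, 41.3 ± 8.41 in dwarf ovaries at 6 months and 35.6 ± 12.0 in normal ovaries at 22 months (SD, n = 5 each). In normal ovaries at 6 months Vegfa led, at 47.4 ± 16.0 CPM per kb against 39.9 ± 13.4 CPM per kb for Cdh5, a gap within their spread. Pecam1 ranked 3 in every group, and Vegfc and Angpt1 had the 2 lowest levels in every group, ranks 9 and 10. Angpt1 had 0.658 to 1.06 CPM per kb as group means, and its counts were as low as 5 reads in a library, so its values and those of Vegfc, with a lowest count of 2 reads, are the least precise of the set.

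Vegfa, the main vascular growth factor, lies at chr17:46016993-46032377 on the minus strand (mm10) and has 6 transcripts and 8 merged exons in the annotation deposited with the series. Vegfc lies at chr8:54077532-54186454 on the plus strand. Their promoters are shown because these ligands carried 3 of the 4 calls among the 10 genes. Each sequence is the 250 bases before the RefSeq start (GRCm38.p6), written 5′ to 3′ along the gene, with capitals for matches on either strand. The ETS letters searched were CCGGAA and, as a variant, CAGGAA. The GATA letters were AGATAA and, as a variant, TGATAA. The hypoxia response letters were ACGTG and, as a variant, GCGTG. The table of promoters held 6 of the 10 genes, with 2 starts for Vegfa, of which the upstream one is shown.
Vegfa, chr17:46032378-46032627, minus strand: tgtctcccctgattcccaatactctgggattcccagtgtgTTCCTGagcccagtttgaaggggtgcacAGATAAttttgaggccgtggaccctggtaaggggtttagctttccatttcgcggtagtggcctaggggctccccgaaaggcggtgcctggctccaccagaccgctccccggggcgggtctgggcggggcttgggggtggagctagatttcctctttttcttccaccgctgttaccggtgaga
Vegfc, chr8:54077282-54077531, plus strand: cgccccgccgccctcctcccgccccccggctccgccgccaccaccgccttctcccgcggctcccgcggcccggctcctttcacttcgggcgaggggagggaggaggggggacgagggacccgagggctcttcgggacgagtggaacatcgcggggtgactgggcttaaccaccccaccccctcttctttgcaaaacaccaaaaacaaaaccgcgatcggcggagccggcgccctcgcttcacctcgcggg
The Vegfa window shown held 1 ETS match 210 bases before the start and 1 GATA match 182 bases before it, and no hypoxia response letters. The window of the other Vegfa start, which lies inside the gene at base 46025163, held 2 hypoxia response matches, 218 and 211 bases before that start, and no ETS or GATA letters. The Vegfc window held none of the 3 motifs, at 71.6% G and C. Of 32851 promoter windows of the same length, 35.1% held the ETS letters, 16.6% the GATA letters and 38.6% the hypoxia response letters.

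Vegfa was the gene of the 10 called between the genotypes in edgeR. Dwarf ovaries at 6 months had 78.3, 96.0, 102, 86.5 and 67.9 CPM, against 216, 182, 111, 295 and 186 CPM in normal ovaries at 6 months. Every dwarf library lay below every normal one, a separation shown by 1.81% of all genes in that direction. The difference was -1.23 ± 0.162 on the log2 scale (SE; edgeR adjusted p = 0.000360), and it passed the threshold under all 24 alternative settings, with adjusted p between 1.25e-11 and 0.0126. Without the 3 libraries that stood apart it was -1.40 (adjusted p = 3.08e-05 in edgeR).

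At 22 months dwarf ovaries had 107, 102, 105, 96.6 and 86.5 CPM of Vegfa, against 125, 142, 111, 165 and 115 CPM in normal ovaries. The groups again did not overlap, as for 2.07% of all genes in that direction, but the difference of -0.49 ± 0.160 missed the threshold in edgeR (adjusted p = 0.0937). It passed without the 3 libraries (-0.52, adjusted p = 0.0240 in edgeR), with only these groups in the fit (adjusted p = 0.0425) and in limma voom (adjusted p = 0.0154).

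With age, Vegfa fell in normal ovaries, to 132 ± 22.3 CPM at 22 months against 198 ± 66.7 CPM at 6 months (SD, n = 5 each), a log2 change of -0.60 ± 0.160 (edgeR adjusted p = 0.0300). The lowest of the 6-month libraries, at 111 CPM, overlapped the 22-month range. The call was lost without normal 22-month replicate 1, 2, 3 or 5 or normal 6-month replicate 4, each left out alone, with adjusted p of 0.0511 to 0.110 in edgeR. It was also lost on library totals, with only the normal groups in the fit and without title numbers 21 to 23 (adjusted p of 0.0690 to 0.269). In dwarf ovaries the means were 99.5 ± 8.30 CPM at 22 months and 86.1 ± 13.6 CPM at 6 months, a log2 change of 0.13 ± 0.160 (edgeR adjusted p = 0.607). The difference between these age responses was 0.73 ± 0.226 (edgeR adjusted p = 0.594), and 0.88 (adjusted p = 0.0489) without the 3 libraries. From highest to lowest the group means ran from normal at 6 months through normal at 22 months and dwarf at 22 months to dwarf at 6 months, and the neighbouring dwarf groups did not differ beyond their spread.

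Markers of luteal cells and of adipocytes moved with Vegfa between the genotypes. Of 10 luteal markers, all tested, 5 were called lower in dwarf ovaries at 6 months and none higher, and the summed level was 1974 to 3625 CPM in dwarf ovaries at 6 months against 259 to 14599 CPM in normal ovaries. At 22 months 4 of 10 were called lower in dwarf ovaries, with summed levels of 1704 to 4476 CPM against 2704 to 11890 CPM in normal ovaries. No luteal marker was at 0 throughout a group. Of 6 adipocyte markers, all were below 0 at 6 months and 1 was called lower. Their sums at 6 months were 38.7 to 89.0 CPM in dwarf ovaries and 213 to 863 CPM in normal ovaries, without overlap. At 22 months 5 of the 6 were below 0 and 1 was called lower, with sums that overlapped. Normal 6-month replicate 2, with the lowest luteal sum of all libraries, had 182 CPM of Vegfa, above every dwarf library. It was also the library with 6799 CPM of oviduct markers. Normal 6-month replicate 3, with a luteal sum of 11540 CPM, had the least Vegfa of its group, from 151 reads in the shallowest library. In a bulk sample, fewer cells of a type and less RNA per cell cannot be told apart. The part of luteal cells and adipocytes in the Vegfa difference was not tested.

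**Figure D2:**
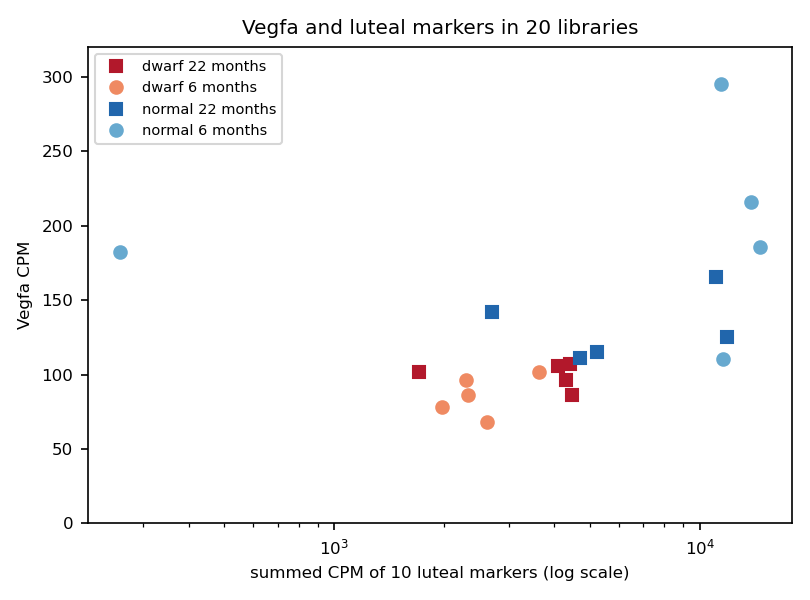
Vegfa CPM (vertical axis) against the summed CPM of 10 luteal markers (horizontal axis, log scale) in the 20 libraries, coloured by group. The normal 6-month library at a luteal sum of 259 CPM had 182 CPM of Vegfa and 6799 CPM of oviduct markers. The dwarf libraries lay at luteal sums of 1704 to 4476 CPM.

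Vegfc, the lymphatic growth factor, changed with age in dwarf ovaries. Dwarf ovaries at 22 months had 1.20, 2.47, 1.71, 2.33 and 3.33 CPM, against 3.58, 7.36, 7.07, 4.64 and 6.79 CPM in dwarf ovaries at 6 months. The groups did not overlap, as for 12.2% of all genes in that direction. The log2 change was -1.50 ± 0.400 (edgeR adjusted p = 0.0220). The call was lost without dwarf 22-month replicate 1, 3 or 4 or dwarf 6-month replicate 3 or 5, each left out alone (edgeR adjusted p of 0.0505 to 0.0668), and with dwarf 22-month replicates 1 and 4 summed as 1 library (adjusted p = 0.0529).

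In normal ovaries Vegfc had 6.81, 3.61, 4.60, 5.01 and 2.00 CPM at 22 months, against 6.93, 1.60, 1.46, 4.59 and 3.32 CPM at 6 months. These overlapped widely, with a log2 change of 0.25 ± 0.394 that was -0.11 without the 3 libraries (edgeR adjusted p = 0.743 and 0.864). At 22 months the genotype difference in Vegfc was -1.09 ± 0.401 (edgeR adjusted p = 0.139), and at 6 months it was 0.65 ± 0.392 (adjusted p = 0.402), or 0.30 without the 3 libraries. The difference between the age responses was -1.75 ± 0.560, with an adjusted p of 0.594 in edgeR. The highest group mean of Vegfc, in dwarf ovaries at 6 months, and the lowest, in dwarf ovaries at 22 months, were both in dwarf mice, and the other two groups lay between them with ranges that overlapped each other.

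Kdr, the signalling receptor of VEGF-A (chr5:75933270-75978428, minus strand), had 68.5, 65.2, 49.5, 67.5 and 68.0 CPM in dwarf ovaries at 22 months and 55.5, 55.0, 62.4, 63.4 and 61.0 CPM in dwarf ovaries at 6 months. Normal ovaries had 102, 55.6, 97.6, 98.3 and 63.4 CPM at 22 months and 63.8, 45.7, 25.6, 76.4 and 82.9 CPM at 6 months. The dwarf libraries were the more uniform, and 3 of the 5 normal libraries at 22 months stood above every other library. No contrast was called: the log2 difference was -0.48 ± 0.215 between the genotypes at 22 months (edgeR adjusted p = 0.243), -0.01 ± 0.215 at 6 months, 0.02 ± 0.214 with age in dwarf ovaries and 0.48 ± 0.215 with age in normal ovaries (edgeR adjusted p = 0.186). Without the 3 libraries, the age difference in normal ovaries was 0.15 and the 6-month difference between the genotypes -0.28.

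Flt1, the receptor that sequesters VEGF-A (chr5:147562196-147725988, minus strand), came closest to a genotype call at 22 months. Dwarf ovaries had 13.9, 19.9, 17.9, 21.1 and 23.7 CPM at 22 months, against 38.0, 19.8, 32.4, 50.3 and 19.3 CPM in normal ovaries. The groups overlapped through normal replicates 2 and 5. The log2 difference was -0.81 ± 0.262 (edgeR adjusted p = 0.0923), and it passed in DESeq2 (adjusted p = 0.0383), in limma voom (adjusted p = 0.0238) and in edgeR without normal 22-month replicate 5 (-0.95, adjusted p = 0.0471).

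At 6 months Flt1 averaged 21.7 ± 4.89 CPM in dwarf ovaries and 31.5 ± 11.1 CPM in normal ovaries (SD, n = 5 each), a log2 difference of -0.57 ± 0.260 (edgeR adjusted p = 0.245). The normal range at 6 months, from 13.9 to 39.7 CPM, held the whole dwarf range. Of the alternatives, limma voom alone called this difference (-0.89, adjusted p = 0.0181). Age changes in Flt1 were -0.25 ± 0.260 in dwarf ovaries and -0.01 ± 0.260 in normal ovaries, and neither was called.

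Angpt2, the angiopoietin of growing and regressing vessels (chr8:18690263-18741562, minus strand), fell with age in normal ovaries. Normal ovaries had 22.9, 10.1, 13.1, 16.6 and 26.5 CPM at 22 months, against 51.6, 7.50, 38.1, 62.3 and 56.4 CPM at 6 months. Apart from 6-month replicate 2, at 7.50 CPM, the 6-month libraries lay above all 22-month ones. The log2 change was -1.31 ± 0.383 (edgeR adjusted p = 0.0461). It was lost without any 1 of normal 22-month replicates 1 to 4 or normal 6-month replicates 1, 3, 4 and 5 (edgeR adjusted p of 0.0575 to 0.134). It was also lost on library totals, with only the normal groups in the fit and without title numbers 21 to 23 (adjusted p of 0.0563 to 0.292). It was -1.52 (adjusted p = 0.000924) without the 3 libraries that stood apart.

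Dwarf ovaries had 37.6, 32.9, 28.4, 36.1 and 35.4 CPM of Angpt2 at 22 months, against 54.3, 42.8, 90.9, 71.0 and 47.4 CPM at 6 months. The groups did not overlap, as for 12.2% of all genes in that direction, and the log2 change of -0.93 ± 0.376 missed the threshold (edgeR adjusted p = 0.113). It passed without the 3 libraries (-0.90, adjusted p = 0.00828 in edgeR), in limma voom (adjusted p = 0.00163) and with only the dwarf groups in the fit (adjusted p = 0.00587). At 22 months every dwarf library lay above every normal one, as for 5.16% of all genes in that direction, with a log2 difference of 0.85 ± 0.379 that was not called (edgeR adjusted p = 0.238). The 6-month difference between the genotypes was 0.47 ± 0.375 (adjusted p = 0.555), against 0.23 without normal 6-month replicate 2 and 0.15 without the 3 libraries.

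Oocyte and granulosa markers moved with Angpt2. Of 8 oocyte markers, 7 were called lower with age in normal ovaries and 6 in dwarf ovaries. Their summed level was 53.0 to 87.8 CPM in dwarf ovaries at 22 months and 355 to 530 CPM in dwarf ovaries at 6 months, and 5.93 to 42.5 CPM in normal ovaries at 22 months and 3.20 to 464 CPM in normal ovaries at 6 months. Of 8 granulosa markers only 1 was called lower with age in each genotype. Of all genes 8.27% were called lower in dwarf ovaries and 4.14% in normal ovaries. All 8 granulosa markers had values below 0 with age in normal ovaries, and 6 of them in dwarf ovaries. Granulosa sums were 911 to 1769 CPM in dwarf ovaries at 22 months and 2038 to 3348 CPM in dwarf ovaries at 6 months. They were 325 to 1431 CPM in normal ovaries at 22 months and 79.4 to 4144 CPM in normal ovaries at 6 months. No marker of either list was at 0 throughout a group. Normal 6-month replicate 2, with the lowest sum of both lists in its group, also had the lowest Angpt2 of all 20 libraries. The part of these cells in the Angpt2 changes was not tested.

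Angpt1, the stabilising ligand (chr15:42424725-42676795, minus strand), averaged 3.87 ± 0.962 CPM in dwarf ovaries at 22 months, 3.88 ± 0.561 CPM in dwarf ovaries at 6 months, 2.68 ± 1.48 CPM in normal ovaries at 22 months and 4.33 ± 2.76 CPM in normal ovaries at 6 months (SD, n = 5 each). Normal ovaries spread from 0.773 to 4.79 CPM at 22 months and from 0.947 to 8.43 CPM at 6 months, and the 6-month range held every dwarf value. No contrast was called, and the largest difference was -0.70 ± 0.450 with age in normal ovaries (edgeR adjusted p = 0.358), or -1.02 without the 3 libraries. The 6-month difference between the genotypes was -0.20, or -0.52 without them.

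The ratio of Angpt2 to Angpt1 reads within a library does not depend on library scaling. It averaged 3.14 ± 0.449 on the log2 scale in dwarf ovaries at 22 months and 3.93 ± 0.319 in dwarf ovaries at 6 months, and 2.84 ± 0.623 in normal ovaries at 22 months and 3.28 ± 0.476 in normal ovaries at 6 months (SD, n = 5 each). In dwarf ovaries the 22-month libraries lay between 2.34 and 3.39 and the 6-month libraries between 3.70 and 4.48, without overlap. The age difference in dwarf ovaries was -0.79 (exact permutation test, two-sided, p = 0.00794, the smallest that 5 against 5 mice can give, and 0.0317 adjusted over the 4 contrasts). With 1 mouse left out the groups still did not overlap, and the difference was -0.85 to -0.59. Each of these 10 exact tests gave the smallest p that 4 against 5 mice can give, which adjusted to 0.0635 here. They could not pass, so they cannot show whether the call rests on 1 mouse.

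The other 3 contrasts of the ratio did not pass the same exact permutation test. The difference was 0.65 between dwarf and normal ovaries at 6 months (adjusted p = 0.0794, exact), 0.30 at 22 months (adjusted p = 0.357, exact; 0.13 without the 3 libraries) and -0.44 with age in normal ovaries (adjusted p = 0.339, exact). At 6 months it passed with an added count of 5 in place of 0.5 (0.85, adjusted p = 0.0476, exact) and without normal 6-month replicate 1 (0.81, adjusted p = 0.0317, exact). Without the 3 libraries it was 0.52 and did not pass (adjusted p = 0.357, exact), with fewer normal mice left to permute.

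**Figure D3:**
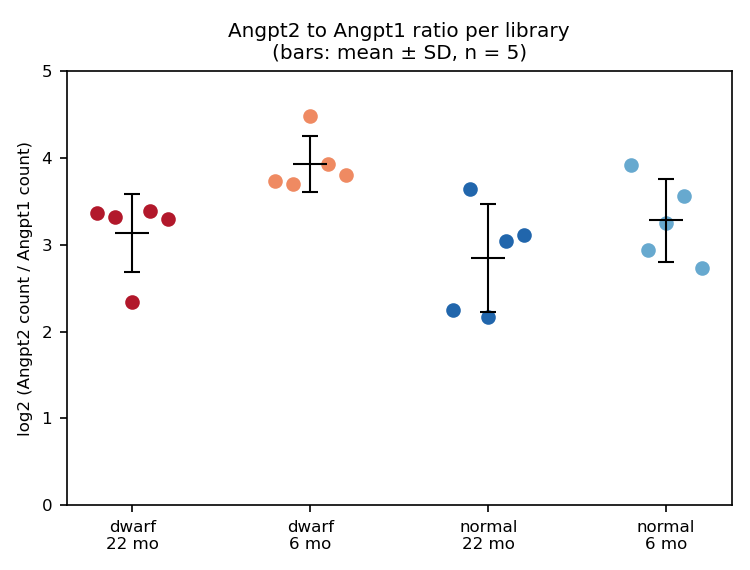
Log2 of the ratio of Angpt2 to Angpt1 counts in each library (points), with the mean and SD of each group of 5 mice. The dwarf libraries at 22 months, at 2.34 to 3.39, lay below all dwarf libraries at 6 months, at 3.70 to 4.48.

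Tek, the angiopoietin receptor (chr4:94739300-94874939, plus strand), and Tie1, its partner (chr4:118471191-118489849, minus strand), lie on the same chromosome. Their promoter windows are shown because both genes followed the other endothelial receptors from library to library, and capitals mark the same 3 motifs.
Tek, chr4:94739039-94739288, plus strand: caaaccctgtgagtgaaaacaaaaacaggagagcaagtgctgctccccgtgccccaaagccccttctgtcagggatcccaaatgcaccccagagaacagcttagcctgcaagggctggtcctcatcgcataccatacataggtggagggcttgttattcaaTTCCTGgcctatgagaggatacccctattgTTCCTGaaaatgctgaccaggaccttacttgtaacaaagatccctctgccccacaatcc
Tie1, chr4:118489850-118490099, minus strand: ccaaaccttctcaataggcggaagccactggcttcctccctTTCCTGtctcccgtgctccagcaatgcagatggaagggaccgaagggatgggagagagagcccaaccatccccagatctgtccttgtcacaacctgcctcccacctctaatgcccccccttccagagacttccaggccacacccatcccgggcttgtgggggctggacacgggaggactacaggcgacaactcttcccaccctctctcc
The Tek window held 2 ETS matches, 89 and 59 bases before the start, and the Tie1 window held 1, at 209 bases before it. Neither held the GATA or hypoxia response letters. The window of Kdr held 1 ETS match and 2 hypoxia response matches, and that of Flt1 held 1 hypoxia response match and no ETS match.

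Tek had 17.3, 18.9, 16.4, 17.8 and 16.7 CPM in dwarf ovaries at 22 months, against 39.8, 12.5, 24.8, 35.9 and 22.4 CPM in normal ovaries at 22 months. The normal libraries reached both lower and higher than the dwarf ones. The log2 difference was -0.71 ± 0.242 (edgeR adjusted p = 0.106). It passed without normal 22-month replicate 2 (-0.87, edgeR adjusted p = 0.0228) and in limma voom (adjusted p = 0.0116). At 6 months Tek averaged 19.0 ± 3.74 CPM in dwarf ovaries and 22.9 ± 7.12 CPM in normal ovaries (SD, n = 5 each), and neither this nor an age contrast was called (edgeR adjusted p of 0.550 to 0.640).

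Tie1 had 40.9, 36.9, 39.3, 40.8 and 60.7 CPM in dwarf ovaries at 22 months, against 54.0, 62.4, 89.3, 47.8 and 78.0 CPM in dwarf ovaries at 6 months. Dwarf 22-month replicate 5 was the one that overlapped the younger range. The log2 change with age was -0.69 ± 0.278 (edgeR adjusted p = 0.113), and it passed in limma voom (adjusted p = 0.00875) and with only the dwarf groups in the fit (adjusted p = 0.0246). In normal ovaries the means were 66.3 ± 28.1 CPM at 22 months and 61.2 ± 23.2 CPM at 6 months, a log2 change of 0.08 ± 0.278 that was -0.08 without the 3 libraries. The genotype difference was -0.68 ± 0.279 at 22 months (edgeR adjusted p = 0.196), with a pass in limma voom (adjusted p = 0.0243), and 0.09 ± 0.278 at 6 months.

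Cdh5, the VE-cadherin of endothelial junctions (chr8:104101625-104144502, plus strand), showed the same order as Tie1 among the dwarf groups. Dwarf ovaries had 111, 105, 98.5, 107 and 150 CPM at 22 months, against 137, 152, 210, 135 and 189 CPM at 6 months, and only 22-month replicate 5 reached the younger range. The log2 change was -0.62 ± 0.247 (edgeR adjusted p = 0.111), with a pass in limma voom (adjusted p = 0.00476) and with only the dwarf groups in the fit (adjusted p = 0.0162). Normal ovaries averaged 142 ± 48.0 CPM at 22 months and 159 ± 53.3 CPM at 6 months (SD, n = 5 each), and neither they nor the genotype contrasts gave a call.

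Pecam1, an adhesion protein of endothelium that platelets and leukocytes also carry (chr11:106654218-106715281, minus strand, 2 transcripts), varied most among normal ovaries at 22 months, which had 99.3, 41.1, 119, 133 and 49.7 CPM. Dwarf ovaries at 22 months had 55.0, 96.9, 45.9, 48.1 and 89.5 CPM, within the normal range. Dwarf ovaries at 6 months averaged 62.0 ± 12.9 CPM and normal ovaries at 6 months 74.2 ± 7.36 CPM (SD, n = 5 each). No contrast was called, and the difference between the genotypes at 22 months was -0.48 ± 0.281 (edgeR adjusted p = 0.401). Summed platelet markers were 14.4 to 20.7 CPM in dwarf ovaries at 22 months, 14.6 to 21.7 CPM in dwarf ovaries at 6 months, 16.7 to 24.1 CPM in normal ovaries at 22 months and 7.51 to 28.6 CPM in normal ovaries at 6 months.

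**Figure D4:**
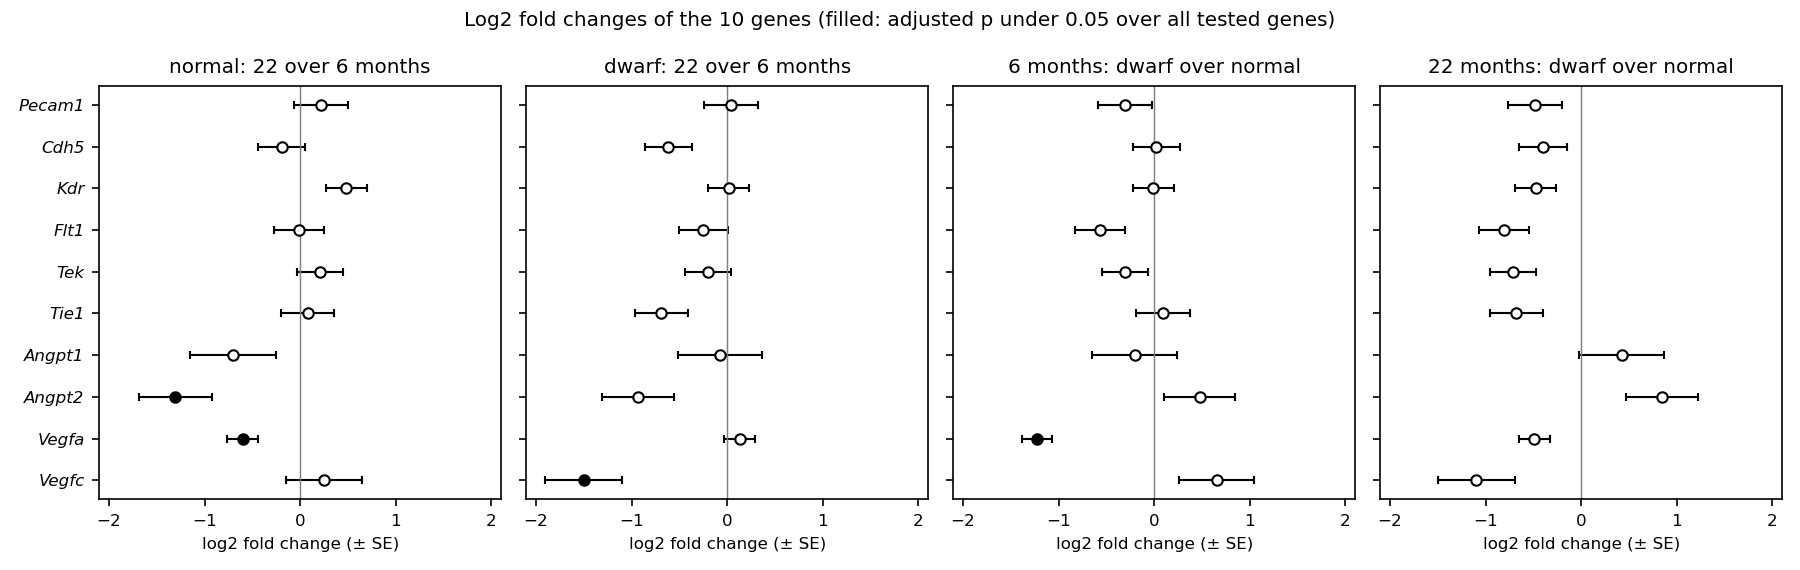
Log2 fold changes of the 10 genes with their SE in 4 contrasts, filled where the adjusted p was under 0.05 over all tested genes. Between dwarf and normal ovaries at 22 months, 8 of the 10 values lay below 0 and none was called.

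Pecam1, Cdh5, Kdr, Flt1, Tek and Tie1, the 6 endothelial surface proteins among the 10, all had lower fitted values in dwarf than in normal ovaries at 22 months, from -0.81 to -0.40 with a median of -0.58 on the log2 scale. The median over all tested genes was -0.04 in this contrast. Angpt2, which endothelial cells also make, had 0.85 there, on the other side of 0. None of the 6 was called in edgeR (adjusted p of 0.0923 to 0.439), and each difference kept its sign under all 24 alternative settings. At 6 months the 6 values ran from -0.57 to 0.09, with 4 below 0, of which Kdr turned to 0.011 with upper quartile scaling. With age they ran from -0.69 to 0.04 in dwarf ovaries and from -0.19 to 0.48 in normal ovaries, none of them called. All 6 differences between the age responses were below 0, from -0.77 to -0.18, none of them called (edgeR adjusted p of 0.757 to 0.990), and that of Flt1 was above 0 without the 3 libraries.

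Macrophage markers also had lower fitted values in dwarf ovaries at 22 months, with all 8 below 0 and 1 called lower, and summed levels of 368 to 551 CPM in dwarf ovaries against 468 to 1894 CPM in normal ovaries. Adipocyte markers summed to 125 to 308 CPM in dwarf ovaries at 22 months and 189 to 807 CPM in normal ovaries at 22 months, with 1 of 6 called lower. Of the 10 luteal markers all were below 0 and 4 were called lower, with the sums given above. Of 7 B and plasma cell markers all were below 0 and none was called, with sums of 44.5 to 136 CPM in dwarf ovaries against 51.9 to 1215 CPM in normal ovaries. Of 7 T and NK cell markers all were below 0 and none was called, with sums of 24.3 to 39.1 CPM in dwarf ovaries against 13.2 to 153 CPM in normal ovaries. No marker of these 5 lists was at 0 throughout either group. Their part in the endothelial values was not tested.

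The 6 endothelial genes moved together between libraries of the same group. Over 20 libraries, the 15 pairs had correlations of 0.487 to 0.902 (median 0.657) between their deviations from the group means of log2 CPM, with the highest for Cdh5 and Tie1. The range was 0.617 to 0.901 without the 3 libraries. Vegfa had correlations of 0.0137 to 0.491 with the 6 genes, and its highest, with Flt1, was 0.238 without the 3 libraries. Vegfc reached 0.801 with Flt1 and 0.751 with Tie1, and Angpt1 and Angpt2 had 0.794 with each other, or 0.628 without the 3 libraries. These values describe libraries that share depth and cell composition, and carry no test.

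Over all tested genes, the same measure placed other vascular genes nearest to the receptors. Flt1 was most like Arhgef15, an exchange factor of endothelial cells (r = 0.963 over 20 libraries). Tie1 was most like Stab1 (0.950), a scavenger receptor of sinusoidal endothelium and macrophages, followed by Eng (0.933), a co-receptor for TGF-beta on endothelium, and Pdgfrb (0.925), the receptor of pericytes. Cdh5 was nearest to Dhcr7 (0.920), Stab1 (0.911) and Pcbp2 (0.910), Kdr to Lrrc8c (0.927) and Klhl20 (0.915), Pecam1 to Agtr1a (0.896), Pde2a (0.849) and Vtn (0.837), and Tek to Plin4 (0.915), Abca7 (0.888) and Lrp11 (0.887). After Arhgef15, Flt1 was nearest to Afap1l1 (0.869) and Adamts1 (0.848).

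Of the ligands, Vegfc shared Afap1l1 with Flt1. Angpt2 was nearest to Mark1 (0.932), Npm2 (0.931), a chromatin protein of the oocyte, and Ptprd (0.929). These values dropped to 0.679, 0.726 and 0.694 without the 3 libraries. Vegfa was nearest to Lrrc38 (0.809), Chtf8 (0.805) and Sema4f (0.782), Vegfc to Afap1l1 (0.878), Gatad2a (0.848) and Tnip1 (0.825), and Angpt1 to Brca1 (0.886), Zfp41 (0.880) and Vcan (0.871). Without the 3 libraries the value was 0.632 for Vegfa with Lrrc38, 0.806 for Vegfc with Afap1l1 and 0.807 for Angpt1 with Brca1.

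Around the 10 genes, 8 lists of vascular genes were read in the same fit. Their counts of calls are to be read against the shares of all genes called in the same contrasts. These were 3.81% between the genotypes at 22 months, 4.57% at 6 months, 11.2% with age in dwarf ovaries and 6.75% in normal ovaries. The called genes named had the smallest p in these data, so a separation of their groups is no further evidence. Of 28 other endothelial genes, 1 was called at 22 months between dwarf and normal ovaries, and it was higher in dwarf ovaries. Cd34, a surface sialomucin of small vessels that stromal cells and haematopoietic progenitors also carry, had 137, 136, 103, 136 and 201 CPM in dwarf ovaries at 22 months, against 80.6, 54.7, 71.1, 89.3 and 64.5 CPM in normal ovaries. The groups did not overlap, as for 5.16% of all genes in that direction. The log2 difference was 0.90 ± 0.177 (edgeR adjusted p = 0.00754), with a call under all 24 alternatives. Theca and stroma markers moved with it: 5 of 6 were above 0, 2 were called higher, and their sums were 1941 to 2584 CPM in dwarf ovaries against 802 to 1854 CPM in normal ovaries, with none at 0 throughout. Their part was not tested. Of the 28 genes 26 had values below 0 in this contrast, with a median of -0.41, and 24 to 26 under the 3 other scalings. Among them Plvap, a protein of fenestrated endothelium, had -1.13 (edgeR adjusted p = 0.102), and Acvrl1, a BMP9 receptor, had -0.78 (adjusted p = 0.0846). Without the 3 libraries 3 genes of the list were called lower.

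**Figure D5:**
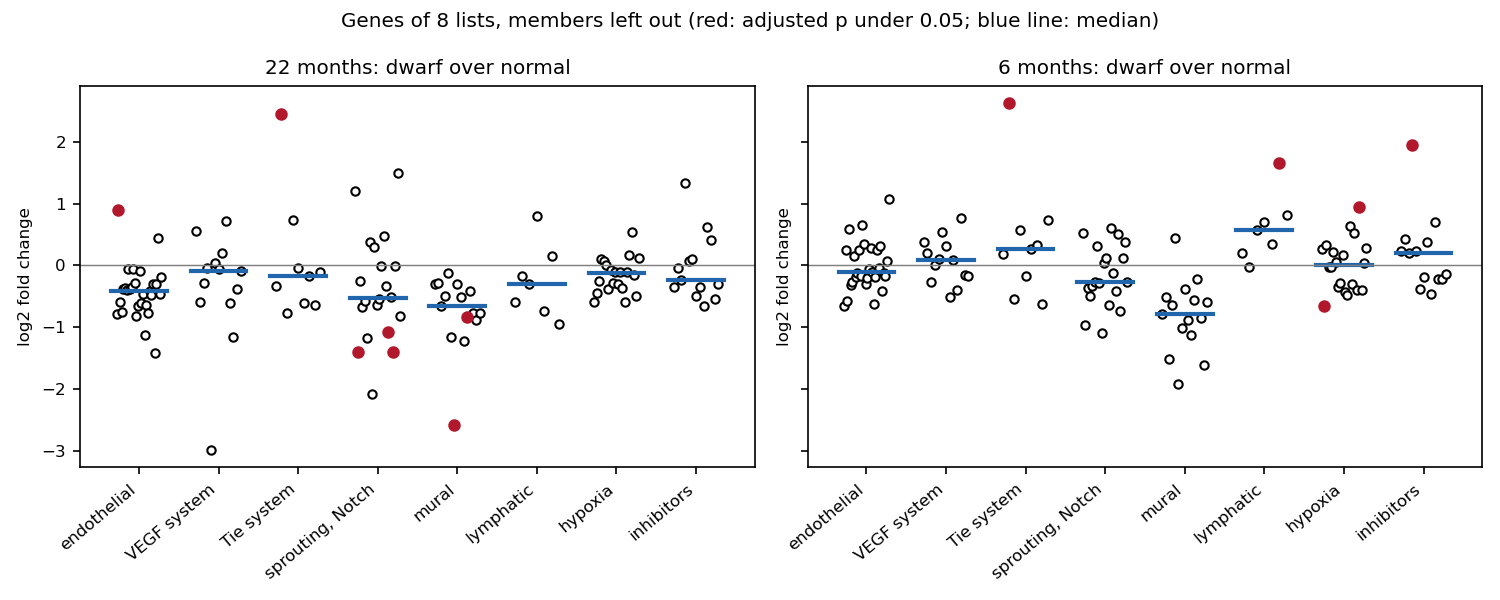
Log2 fold changes of the genes of 8 vascular lists, the 10 genes left out, between dwarf and normal ovaries at 22 months (left) and 6 months (right), with called genes in red and list medians as lines. All 15 mural genes lay below 0 at 22 months, and the endothelial median was -0.41 at 22 months and -0.11 at 6 months.

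At 6 months none of the 28 endothelial genes was called between the genotypes in edgeR, with a median of -0.11, and 3 were called lower without the 3 libraries. With age in dwarf ovaries 1 fell, Sox18, a transcription factor of vessel development, to 34.3 ± 8.32 CPM at 22 months against 65.1 ± 9.77 CPM at 6 months (SD, n = 5 each). Its log2 change was -1.01 ± 0.259 (edgeR adjusted p = 0.0175), and it was lost without dwarf 22-month replicate 2 or 3 or dwarf 6-month replicate 5 (adjusted p of 0.0506 to 0.0580). In this contrast 5 of the list were called lower and 2 higher without the 3 libraries. With age in normal ovaries none was called in edgeR, against 4 called higher and 2 lower without the 3 libraries, where 29.6% of all genes were called.

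Mural genes, those of pericytes and vascular smooth muscle, gave 2 calls between the genotypes at 22 months, both lower in dwarf ovaries, and all 15 had values below 0 with a median of -0.66, under the 3 other scalings too. Higd1b, a pericyte gene, had 0.932, 0.198, 0.297, 0.358 and 1.11 CPM in dwarf ovaries at 22 months, against 1.78, 3.61, 2.24, 6.17 and 2.00 CPM in normal ovaries. These low levels did not overlap, as for 2.07% of all genes in that direction. The difference was -2.58 ± 0.517 on the log2 scale (edgeR adjusted p = 0.00894), with a call under all 24 alternatives. Notch3, the Notch receptor of vascular smooth muscle, averaged 82.7 ± 19.7 CPM in dwarf ovaries at 22 months and 140 ± 36.6 CPM in normal ovaries (SD, n = 5 each), a difference of -0.83 ± 0.225 (edgeR adjusted p = 0.0432). That call was lost without any 1 of dwarf 22-month replicates 1, 3, 4 and 5 or normal 22-month replicates 1, 3, 4 and 5 (adjusted p of 0.0520 to 0.154), and under 6 other settings, library totals and upper quartile scaling among them (0.0571 to 0.153).

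At 6 months 14 of the 15 mural genes had values below 0 between dwarf and normal ovaries, with a median of -0.79, and none was called in edgeR. Leaving out the 3 libraries gave 11 of 15 below 0, a median of -0.37 and 1 called lower. The summed mural level at 6 months was 1562 to 3684 CPM in dwarf ovaries and 2047 to 9461 CPM in normal ovaries. The highest normal value was that of replicate 2, the library with 6799 CPM of oviduct markers. Cspg4, the NG2 proteoglycan of pericytes, fell with age in dwarf ovaries (-1.03 ± 0.280, edgeR adjusted p = 0.0239), with the call lost without any 1 of dwarf 22-month replicates 1 to 4 or dwarf 6-month replicates 3 and 5 (adjusted p of 0.0569 to 0.0827) and with dwarf 22-month replicates 1 and 4 summed (0.0576).

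Of 20 genes of sprouting and Notch signalling, 3 were called between the genotypes at 22 months, all lower in dwarf ovaries. Aplnr, the apelin receptor, averaged 13.9 ± 2.85 CPM in dwarf ovaries and 34.7 ± 8.04 CPM in normal ovaries at 22 months (-1.41 ± 0.320 on the log2 scale, edgeR adjusted p = 0.0178). Plaur, the urokinase receptor, averaged 3.55 ± 1.65 CPM in dwarf ovaries and 8.87 ± 1.72 CPM in normal ovaries (-1.40 ± 0.326, adjusted p = 0.0215 in edgeR). Notch4, an endothelial Notch receptor, averaged 19.9 ± 4.64 CPM in dwarf ovaries and 39.5 ± 10.8 CPM in normal ovaries (-1.08 ± 0.291, adjusted p = 0.0434 in edgeR). For each of these 3 genes every dwarf library lay below every normal one, as for 2.07% of all genes.

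With 1 library left out, the differences stayed between -1.50 and -1.29 for Aplnr, -1.53 and -1.16 for Plaur and -1.19 and -0.95 for Notch4, and the calls did not all hold. Aplnr was lost without dwarf 22-month replicate 1, 3 or 4 (edgeR adjusted p of 0.0512 to 0.0577) and under 2 other settings (0.0523 to 0.0540), and Plaur without dwarf 22-month replicate 2, 4 or 5 or normal 22-month replicate 1 or 4 (0.0509 to 0.0795). Notch4 was lost in 9 of 10 such fits, all but that without normal 22-month replicate 5 (adjusted p of 0.0521 to 0.113), and under 5 other settings, library totals and upper quartile scaling among them (0.0520 to 0.110). Without the 3 libraries that stood apart, 5 genes of the list were called lower and 1 higher in this contrast.

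With age in dwarf ovaries the sprouting list gave 1 fall and 1 rise. Pdgfb, the endothelial ligand that recruits pericytes, had 24.2, 28.5, 21.9, 21.0 and 31.7 CPM in dwarf ovaries at 22 months, against 52.7, 49.5, 64.1, 40.6 and 60.9 CPM at 6 months. The groups did not overlap, as for 12.2% of all genes in that direction, and the log2 change was -1.16 ± 0.268 (edgeR adjusted p = 0.0107). Slit2, a secreted guidance protein read by Robo receptors, had 60.6, 33.2, 47.4, 79.8 and 37.2 CPM at 22 months, against 18.1, 22.6, 8.75, 16.5 and 6.13 CPM at 6 months, with a log2 change of 1.78 ± 0.431 (edgeR adjusted p = 0.0138). Both were called under all 24 alternatives. In normal ovaries none of the 20 was called with age in edgeR, against 5 higher and 3 lower without the 3 libraries (29.6% of all genes in that fit), and at 6 months none was called between the genotypes, against 2 higher and 1 lower without them.

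Of 9 other genes of the angiopoietin system, 1 was called higher in dwarf ovaries at both ages, Angpt4, a further ligand of Tek. At 6 months dwarf ovaries had 32.2, 19.5, 53.8, 15.5 and 35.6 CPM of Angpt4, against 7.19, 0.728, 5.86, 7.85 and 4.00 CPM in normal ovaries. The log2 difference was 2.62 ± 0.589 (edgeR adjusted p = 0.0144), and with only these groups in the fit the adjusted p was 0.0547. At 22 months dwarf ovaries had 14.1, 5.53, 16.4, 16.7 and 24.8 CPM, against 1.68, 1.03, 2.18, 7.52 and 1.80 CPM in normal ovaries. These overlapped through dwarf replicate 2 and normal replicate 4, and the difference was 2.46 ± 0.589 (edgeR adjusted p = 0.0239). The 22-month call was lost without dwarf 22-month replicate 4 or 5 or normal 22-month replicate 1, 2, 3 or 5 (adjusted p of 0.0513 to 0.0630), and under 2 other settings (0.0503 to 0.112).

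Foxo1, the transcription factor that Tek signalling restrains in endothelium and that granulosa cells express strongly, was the gene of this list called with age. It fell to 212 ± 22.8 CPM in dwarf ovaries at 22 months, against 527 ± 125 CPM at 6 months (-1.40 ± 0.287, edgeR adjusted p = 0.00590). In normal ovaries it fell to 121 ± 24.5 CPM at 22 months, against 347 ± 169 CPM at 6 months (-1.55 ± 0.289, adjusted p = 0.00814 in edgeR; SD and n = 5 throughout). The call in normal ovaries was lost with only the normal groups in the fit (adjusted p = 0.214) and without title numbers 21 to 23 (0.0526). The granulosa sums given above moved with it, and their part was not tested. The list had 2 genes called lower in dwarf ovaries, and 2 called lower and 1 higher in normal ovaries, without the 3 libraries.

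Of 13 other genes of the VEGF system, 1 was called in any contrast. Sh2d2a, an adaptor that binds Kdr and is abundant in T cells, rose with age in normal ovaries, with 2.91, 2.32, 15.8, 6.36 and 2.69 CPM at 22 months against 0.770, 1.02, 0, 1.20 and 1.66 CPM at 6 months. Its log2 change was 2.51 ± 0.543 (edgeR adjusted p = 0.0129), and 1.72 (adjusted p = 0.0370) without normal 22-month replicate 3. The call was lost with only the normal groups in the fit (adjusted p = 0.214) and without title numbers 21 to 23 (0.0585). T and NK cell markers moved with it, with 3 of 7 called higher and summed levels of 13.2 to 153 CPM in normal ovaries at 22 months against 10.3 to 16.1 CPM at 6 months, and their part was not tested. Pgf, the placental growth factor that binds Flt1, had the most negative value between the genotypes at 22 months, -2.98, without a call (edgeR adjusted p = 0.0940). In that contrast 2 genes of this list were called lower without the 3 libraries, and 4 were called higher and 2 lower with age in normal ovaries.

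Of 7 tested lymphatic genes, 1 was called at 6 months between the genotypes. Reln, a glycoprotein secreted by lymphatic endothelium, had 58.7, 32.1, 65.9, 36.1 and 36.4 CPM in dwarf ovaries at 6 months, against 15.8, 6.70, 8.05, 21.6 and 18.7 CPM in normal ovaries. The log2 difference was 1.65 ± 0.322 (edgeR adjusted p = 0.00562), with a call under all 24 alternatives. With age Reln fell in dwarf ovaries, to 24.1 ± 3.16 CPM at 22 months (-1.02 ± 0.314, edgeR adjusted p = 0.0438), a call that was lost in 9 of 10 fits without 1 library, all but that without dwarf 6-month replicate 2 (adjusted p of 0.0575 to 0.135), and under 6 other settings, the 3 other scalings among them (0.0507 to 0.0913). Between dwarf and normal ovaries at 6 months, 6 of the 7 genes had values above 0, with a median of 0.57 against -0.04 over all genes. Without the 3 libraries all 7 were above 0, with a median of 0.50. Prox1, the lymphatic master regulator, had 0.35 in this contrast. Lyve1, the hyaluronan receptor and the 1 gene below 0, had -0.03, and neither was called. Ccl21a, a lymphatic chemokine, was at 0 in all 20 libraries. So were the red cell markers Hbb-b1, Hba-a1 and Hba-a2, while the summed red cell markers were 34.3 to 336 CPM. A count of 0 here need not mean that a gene was not expressed.

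Of 20 genes of the hypoxia response, which also controls Vegfa, 1 was called lower and 1 higher in dwarf than in normal ovaries at 6 months. Aldoa, a glycolytic enzyme, had 660, 746, 784, 714 and 742 CPM in dwarf ovaries, against 1023, 1077, 1266, 1024 and 1157 CPM in normal ovaries (-0.66 ± 0.125 on the log2 scale, edgeR adjusted p = 0.00453). Pdk1, which keeps pyruvate out of the mitochondrion, moved the other way, with 33.0, 42.3, 20.9, 29.1 and 37.8 CPM in dwarf ovaries against 15.5, 18.1, 9.52, 19.0 and 19.6 CPM in normal ovaries (0.94 ± 0.185, adjusted p = 0.00568 in edgeR). For both genes the groups did not overlap, which 1.81% of all genes showed in the direction of Aldoa. With only these groups in the edgeR fit both calls were lost (adjusted p = 0.0572 for Aldoa and 0.0605 for Pdk1). At 22 months none of the 20 was called in edgeR, with 1 higher and 1 lower without the 3 libraries.

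With age in normal ovaries 2 hypoxia genes rose, Ndrg1, a stress-induced protein, by 1.04 ± 0.218 (edgeR adjusted p = 0.0117), and Pdk1, by 0.85 ± 0.185 (adjusted p = 0.0129 in edgeR), against 7 higher and 1 lower without the 3 libraries, where 29.6% of all genes were called. Both calls were lost with only the normal groups in the fit (adjusted p = 0.214) and without title numbers 21 to 23 (0.0745 for Ndrg1 and 0.0729 for Pdk1). In dwarf ovaries Hk2, hexokinase 2, fell to 26.1 ± 2.19 CPM at 22 months against 46.0 ± 12.2 CPM at 6 months (SD, n = 5 each), a change of -0.91 ± 0.284 (edgeR adjusted p = 0.0450). That call was lost in 9 of 10 fits without 1 library, all but that without dwarf 6-month replicate 2 (adjusted p of 0.0657 to 0.131), and under 6 other settings, the 3 other scalings among them (0.0531 to 0.0860). With age in dwarf ovaries 3 genes of the list were called higher and 2 lower without the 3 libraries.

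Of 13 inhibitors of angiogenesis, 2 were called lower and 1 higher with age in dwarf ovaries. Vash1, which VEGF induces in endothelium as a brake, had 24.9, 18.7, 21.9, 22.8 and 27.2 CPM in dwarf ovaries at 22 months, against 41.1, 39.9, 64.7, 42.0 and 51.9 CPM at 6 months (-1.14 ± 0.220, edgeR adjusted p = 0.00430, called under all 24 alternatives). Thbs1, the matrix protein thrombospondin-1, fell to 202 ± 39.2 CPM at 22 months against 557 ± 80.5 CPM at 6 months (-1.55 ± 0.426, adjusted p = 0.0258 in edgeR), with the call lost in 9 of 10 fits without 1 library, all but that without dwarf 6-month replicate 2 (adjusted p of 0.0515 to 0.0670), and under 2 other settings (0.0552 to 0.0569). Timp3, an inhibitor of metalloproteinases that also blocks Kdr, rose to 356 ± 98.2 CPM at 22 months against 195 ± 44.8 CPM at 6 months (0.80 ± 0.178, adjusted p = 0.00894 in edgeR). Granulosa sums, given above, were lower at 22 months in dwarf ovaries, as Vash1 and Thbs1 were, while Timp3 was higher. All 6 adipocyte markers were above 0 in this contrast and 4 were called higher. All 7 surface epithelium markers were above 0 and 1 was called higher. The part of these cells was not tested.

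In normal ovaries Vash1 also fell with age, by 0.81 on the log2 scale (SE 0.218, edgeR adjusted p = 0.0315), with the call lost without normal 22-month replicate 2, 3 or 5 or normal 6-month replicate 1 or 4 (adjusted p of 0.0582 to 0.0831), with only the normal groups in the fit (0.238) and without title numbers 21 to 23 (0.115). Between the genotypes at 6 months Chrdl1, a secreted BMP antagonist, was higher in dwarf ovaries, at 16.2 ± 5.10 CPM against 3.93 ± 2.13 CPM in normal ovaries (1.96 ± 0.441, edgeR adjusted p = 0.0145, called under all 24 alternatives). The inhibitors gave, without the 3 libraries, 5 lower and 2 higher calls with age in dwarf ovaries, 3 lower and 1 higher with age in normal ovaries, 2 higher at 6 months and 1 higher at 22 months between the genotypes.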

How the data were processed

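The libraries came from ovaries of 20 females, 5 in each of 4 groups of genotype and age taken from the labels. Per the labels' protocols, the tissue was frozen on dry ice, Trizol served for extraction and libraries were of the standard Illumina kind; the labelled molecule is polyA RNA. The submitters' processing notes name the mm10 build and, as tools, edgeR, DESeq, HTSeq, TopHat2 2.0.10, TopHat and Bowtie2. For the strand setting, the annotation release and which tool did which step, nothing is given in the sources used here. As deposited, the files hold raw counts of reads per gene, with 5 summary rows (9.84 to 17.6% of each file's counts) that entered neither library sizes nor tests. No exon of the 10 genes overlaps another gene in the deposited annotation.

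Tests were run in edgeR 4.0.16 under R 4.3.3 (filterByExpr with minimum count 10 and minimum total 15, TMM, robust quasi-likelihood, 4 group means over 20 libraries, common dispersion 0.165). P-values were adjusted by Benjamini-Hochberg over 16099 genes. The SE is the absolute log2 fold change divided by the square root of F, which edgeR does not give itself. Levels are CPM of the library total without TMM, and per kb of merged exons. The ratio of Angpt2 to Angpt1 used an added count of 0.5 and exact two-sided permutation tests (252 permutations). Likeness is Pearson's r of deviations from group means of log2 CPM (prior count 2). The fit was tested on simulated counts. The labels do not say whether replicates shared a litter or day.

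The members, the 8 pathway lists, the 14 marker lists and the tests were chosen with earlier results of these data known. Of each list, up to 3 called genes per contrast with the smallest p were named, and for each of the 10 genes the 3 genes most like it, of which 1 is not reported here. Plvap, Acvrl1, Pgf, Prox1, Lyve1, Ccl21a and the r without the 3 libraries were added after their values were seen. Alternatives were DESeq2 1.42.0, limma 3.58.1 voom with quality weights, other scalings and filters, non-robust estimates, fits of the compared groups alone, a block on the replicate number and libraries left out. Summing dwarf 22-month replicates 1 and 4 and removing Rn45s were chosen after seeing the data.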

Additional observations from a re-analysis of the deposited data

Results flagged for a closer look

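In 44 sets of 5 libraries (10 genes and the Angpt2 to Angpt1 ratio in 4 groups), 7 had a library whose gap to its neighbour passed Dixon's critical value at that sample size. Chance gives about 1 in 20 such sets. In dwarf ovaries at 22 months, replicate 5 had 150 CPM of Cdh5 (149.6), against 98.5 to 111 CPM in the other 4, and 60.7 CPM of Tie1 (60.75), against 36.9 to 40.9 CPM. Replicate 3 of the same group had 49.5 CPM of Kdr (49.52), against 65.2 to 68.5 CPM, and 5.58 CPM of Angpt1 (5.577), against 3.26 to 3.60 CPM. Its log2 ratio of Angpt2 to Angpt1 was 2.34 (2.341), against 3.30 to 3.39. In dwarf ovaries at 6 months, replicate 3 had 25.4 CPM of Tek (25.45), against 16.6 to 18.9 CPM, and a log2 ratio of Angpt2 to Angpt1 of 4.48, against 3.70 to 3.93.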

How the results depend on the processing

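Over the 10 genes and 5 contrasts, 1197 of 1290 alternative values kept their direction and their side of the threshold, 25 were no longer called, 18 were newly called and 50 changed sign, none of them from a called value. The 24 alternatives of Vegfa between dwarf and normal ovaries at 6 months ranged from -1.40 to -1.10. For age in normal ovaries the count of called genes, 2, became 0 on library totals, with only the groups compared and without title numbers 21 to 23, and 0 to 2 without 1 replicate. For age in dwarf ovaries it was 1, against 4 in limma voom, 4 with only the groups compared, 2 without the 3 libraries and 0 with dwarf 22-month replicates 1 and 4 summed, and 0 to 1 without 1 replicate. Between the genotypes it was 1 at 6 months, against 2 in limma voom, and 0 at 22 months, against 1 in DESeq2, 4 in limma voom, 1 with only the groups compared, 1 without the 3 libraries and 0 to 1 without 1 replicate. For the difference of age responses it was 0, against 1 without the 3 libraries. Of all genes, limma voom called 46.5% with age in dwarf ovaries, 11.5% between the genotypes at 6 months and 14.1% at 22 months; the fits of only the groups compared called 33.5% with age in dwarf ovaries and 5.53% at 22 months; and those without the 3 libraries 28.7% and 10.8%. The cause was not tested. The ratio of Angpt2 to Angpt1 was -0.85 to -0.59 with age in dwarf ovaries without 1 replicate, and 0.51 to 0.81 between the genotypes at 6 months, where an added count of 5 gave 0.85.

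Signs changed for values near 0. In limma voom they were -0.14 for Tie1 and -0.16 for Vegfc (age in normal ovaries), -0.14 for Pecam1 (age in dwarf ovaries), -0.23 for Cdh5 and -0.26 for Tie1 (genotype at 6 months) and 0.11 for Flt1 (difference of age responses). Without the 3 libraries these were -0.082 for Tie1, -0.11 for Vegfc, -0.20 for Cdh5, -0.16 for Tie1 and 0.031 for Flt1. Without title numbers 21 to 23 they were -0.039 for Pecam1 and 0.0036 for Angpt1 (age in dwarf ovaries), 0.11 for Kdr and 0.20 for Angpt1 (genotype at 6 months). With only the groups compared they were 0.034 for Flt1 (age in normal ovaries) and -0.020 for Cdh5 (genotype at 6 months). Library totals gave 0.0046 for Angpt1 (age in dwarf ovaries). For Kdr at 6 months upper quartile scaling gave 0.011, no filter 0.00016 and the replicate block 0.021. For Cdh5 at 6 months, summing replicates 1 and 4 gave -0.012 and removing Rn45s -0.017.

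Without 1 replicate, values ran from -0.31 to 0.0041 for Cdh5, -0.25 to 0.16 for Flt1 and -0.17 to 0.25 for Tie1 (age in normal ovaries), from -0.14 to 0.18 for Pecam1, -0.022 to 0.12 for Kdr and -0.22 to 0.025 for Angpt1 (age in dwarf ovaries), from -0.11 to 0.12 for Cdh5, -0.15 to 0.095 for Kdr, -0.046 to 0.24 for Tie1 and -0.45 to 0.18 for Angpt1 (genotype at 6 months), and from -0.37 to 0.043 for Pecam1 and -0.38 to 0.013 for Flt1 (difference of age responses).

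The replicate numbers did not pair the libraries: same-numbered libraries correlated at -0.248 to 0.749, and 4, 3, 3 and 2 of 10 libraries were closest to their own number in the 4 contrasts. The replicate block left the 5 counts of called genes at 2, 1, 1, 0 and 0; among list genes it ended the calls of Notch4 (adjusted p = 0.0661) and Notch3 (0.0651) at 22 months and of Reln (0.0534) and Hk2 (0.0562) with age in dwarf ovaries. Depth limits Vegfc and Angpt1 most, at 2 and 5 reads in normal 6-month replicate 3.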
